A study of Mus musculus with 40 samples.

Results

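The regions described here are 6793 strong PU.1 peaks from mouse bone marrow-derived macrophages that shared no base with any peak of SMARCA5, C/EBPb or CTCF. They were chosen by the authors' fold enrichment, at 15 or more, and by the absence of overlap, out of 67796 PU.1 peaks in all and 67674 on chromosomes 1 to 19 and X. They are called lone strong peaks below. They were compared with the 11846 PU.1 peaks at 15 or more that did overlap SMARCA5. Both groups share this threshold but not the level, with median fold enrichments of 18.6 in lone and 20.5 in overlapping peaks. The lone strong peaks were narrower and had a lower -log10 q, also at equal fold enrichment. They had fewer PU.1 peaks close by and lay in stretches with fewer peaks of every list. Only the position and fold enrichment of the peaks entered the choice, so the differences in fold enrichment and overlap that follow from it are given as description.

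PU.1, encoded by Spi1, is an ETS-family transcription factor that binds purine-rich DNA and is required for the formation of macrophages and B cells. It can bind sites in closed chromatin, often beside partner factors such as C/EBPb, a basic leucine zipper protein of myeloid and inflammatory genes. SMARCA5, also known as SNF2H, is the ATPase of the ISWI remodelling complexes, which slide and space nucleosomes and are known for their part in nucleosome order at CTCF sites. CTCF is a zinc-finger protein found at insulators and at the anchors of chromatin loops.

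PU.1, C/EBPb and CTCF each had 4 chromatin immunoprecipitation libraries, 2 from wild-type Csf1r-Cre macrophages and 2 from Smarca5lox/lox Csf1r-Cre macrophages, labelled Smarca5-/-, and these were not stimulated. SMARCA5 had 8 libraries made after micrococcal nuclease digestion, 2 for each genotype without stimulation and 2 for each after lipopolysaccharide at 10 ng/ml for 2 h. Cells of both genotypes carry Cre under the Csf1r promoter, which is active in the myeloid lineage, and 4-hydroxytamoxifen was given daily while they matured. The authors gave 1 consensus list per protein. None of its columns names a library, genotype or stimulus, so a peak may stem from either genotype and nothing below compares genotypes. A SMARCA5 peak may also stem from cells with or without lipopolysaccharide, whereas the other lists come from unstimulated cells. Overlap with SMARCA5 may therefore set unlike conditions side by side. How many animals were used is not stated, and read depth per library is unknown. A further 20 libraries of the histone mark H3K27ac are not analysed here.

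Fold enrichment is the ratio of signal in a peak to its local background, and -log10 q is the significance of the peak after correction for multiple testing. Both are the authors' values for each peak. Intervals are 95% intervals for shares (exact binomial) or medians (exact, from order statistics) and for differences of these. They cover counting error over peaks only, since peaks of 1 list are not replicates and near ones are not independent. No test was run. The number of chromosomes with the same direction is given in its place.

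Of the 20724 strong PU.1 peaks, 32.8% stood alone (32.1 to 33.4), against 41.8% of PU.1 peaks of any strength and 45.7% of those below the threshold (45.3 to 46.2). A further 25.6% overlapped SMARCA5 and neither other factor (5297 peaks, called SMARCA5-only peaks below), 26.5% overlapped SMARCA5 and C/EBPb, and 8.23% overlapped C/EBPb alone. CTCF alone was met by 301 strong peaks, or 1.45%. The threshold cut through a continuous range. The 3 lone peaks just inside it had fold enrichments of 15.0022, 15.0025 and 15.0025 and -log10 q values of 69.6, 145 and 55.0. The 3 PU.1 peaks just below it that also met no other list had 14.9992, 14.9985 and 14.9984 with -log10 q values of 53.6, 58.2 and 65.3.

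Lone peaks became rarer as strength rose, by significance and by fold enrichment. The strong peaks were split into 10 equal groups by -log10 q. The lowest group, between 43.95 and 65.05, held 73.3% lone peaks (71.4 to 75.2), the fifth held 32.4%, and the highest held 3.91% (3.11 to 4.83). By fold enrichment the share went from 46.4% in the lowest of 10 such groups (44.2 to 48.6) to 17.3% in the highest (15.7 to 19.02). Of the 1000 strong peaks with the highest fold enrichment, 142 stood alone and 750 overlapped SMARCA5. Of the 1000 with the highest -log10 q, 31 stood alone and 914 overlapped SMARCA5. Since the peaks were selected on a fold enrichment of at least 15, its range was cut by the choice. The steepness of these rankings is therefore not compared.

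**Figure D1:**
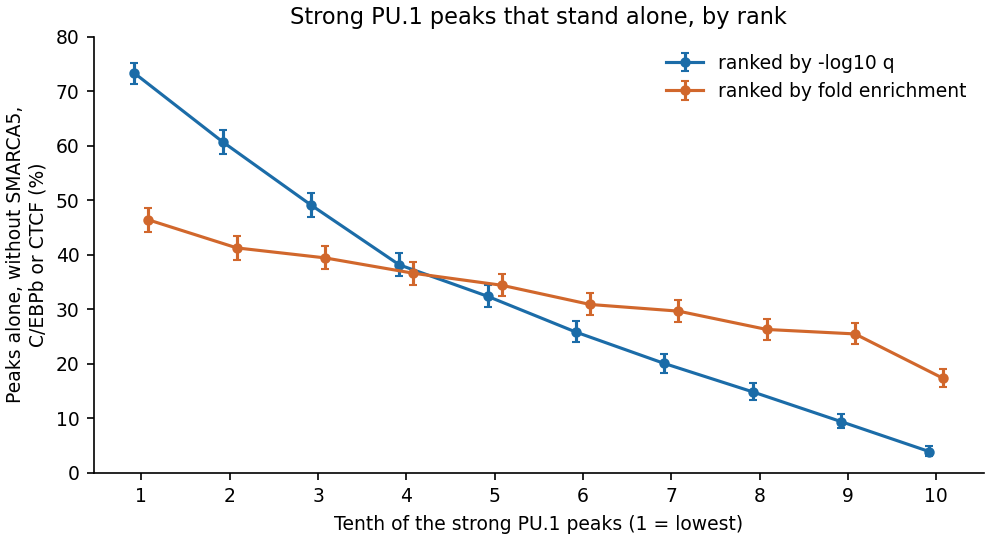
Share of strong PU.1 peaks that overlapped no peak of SMARCA5, C/EBPb or CTCF (%), in 10 equal groups ranked by the authors' -log10 q (blue) or fold enrichment (orange), with exact 95% binomial intervals as bars. By -log10 q the share falls from 73.3% to 3.91%, and by fold enrichment from 46.4% to 17.3%.

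The median -log10 q of lone strong peaks was 94.9 (93.2 to 96.8), with 90% of them between 51.1 and 319. In SMARCA5-overlapping strong peaks it was 228 (224 to 233), or 2.40 times as high. Part of this gap went with fold enrichment, whose median was 18.6 in lone peaks and 20.5 in the others. With the overlapping peaks weighted to the fold enrichments of the lone ones, their median was still 187, and the difference was -92.4. Without weighting, lone peaks had the lower median on 20 of 20 chromosomes. Against SMARCA5-only peaks, whose median was 199, the difference was -104 (-109 to -97.0), again in the same direction on 20 chromosomes.

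The gap was present at each level of fold enrichment. In the lowest of 5 steps, from 15 up, lone peaks had a median -log10 q of 63.2 and SMARCA5-overlapping peaks 123. In the third step, from 20 up, the medians were 118 and 209, and at 25 or more they were 259 and 443. The ratio of the medians went from 1.95 in the lowest step to 1.71 in the highest. Read the other way, at equal -log10 q the lone peaks had the higher fold enrichment. In the lowest of the 10 groups by -log10 q, the median fold enrichments were 16.0 for lone and 15.7 for SMARCA5-overlapping peaks, and in the eighth they were 26.3 and 22.1, a difference of 4.18.

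Lone strong peaks were also narrower than those with SMARCA5, but wider than lone peaks below the threshold. Their median width was 474 bp (473 to 476), and 50% of them lay between 438 and 515 bp. Lone peaks below the threshold had a median of 378 bp, and 62.8% of them were under 400 bp, against 6.20% of the strong ones. SMARCA5-overlapping peaks had a median of 551 bp (549 to 553), a difference of -77 bp (-79.2 to -74.2) that held on 20 of 20 chromosomes, where it lay between -86 and -59 bp. SMARCA5-only peaks had a median of 531 bp. With overlap with SMARCA5 called by the PU.1 summit in place of any shared base, the difference was -76 bp. The part of peak width in the choice by overlap was not tested further. The difference shrank from -78 bp in the lowest step of fold enrichment to -36 bp at 25 or more. With overlapping peaks matched to lone ones on fold enrichment and -log10 q together, which was possible for 6739 lone peaks, it was -21 bp, so most of it went with these measures. Lone peaks were narrower in 62 of 63 matched classes with at least 20 peaks of each kind. Against SMARCA5-only peaks matched in the same way, the difference was -16 bp, and lone peaks were narrower in 50 of 57 classes.

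**Figure D2:**
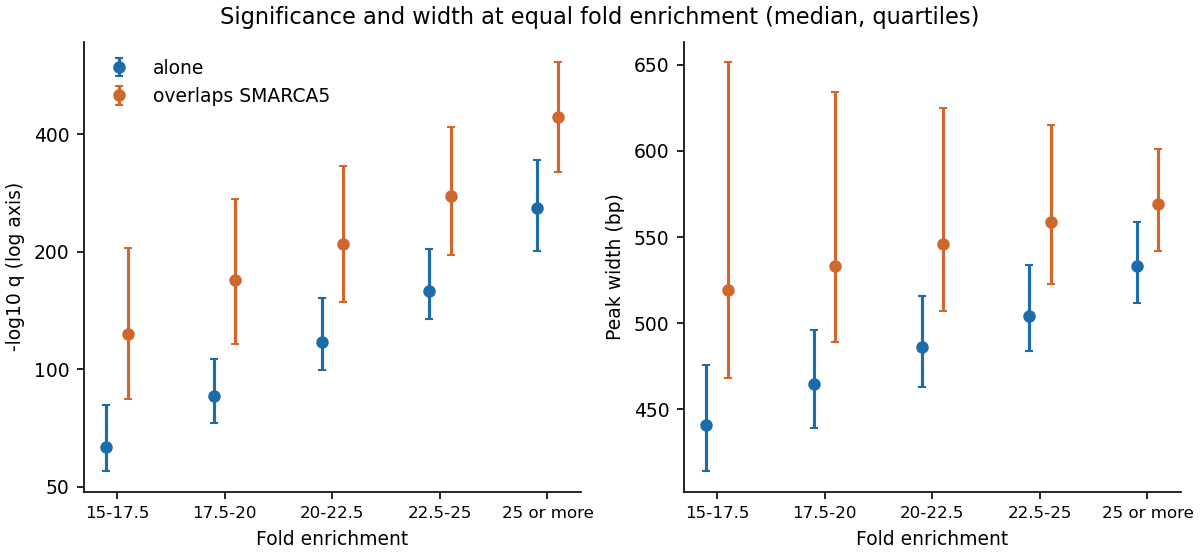
Median -log10 q (left, log axis) and peak width in bp (right, axis not from 0) of lone strong PU.1 peaks (blue) and SMARCA5-overlapping strong PU.1 peaks (orange) in steps of fold enrichment, with quartiles as bars. Lone peaks have the lower medians in each step, 63.2 against 123 in the first step for -log10 q, and the gap in width narrows to 36 bp in the last.

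Few lone strong peaks looked composite. The summit, the base of highest signal, lay in the middle 20% of the peak in 93.3% of them (92.7 to 93.9), against 80.5% of SMARCA5-overlapping peaks (79.8 to 81.2), 84.8% of SMARCA5-only peaks and 76.3% of lone peaks below the threshold. Only 168 lone strong peaks, or 2.47% (2.12 to 2.87), were over 700 bp wide, against 14.9% of SMARCA5-overlapping peaks (14.2 to 15.5). Lone peaks below the threshold had 2.61% over 700 bp (2.40 to 2.83), so this share did not set the strong ones apart among lone peaks. Among the 168 the summit was central in 11.3%, against 95.4% of the narrower ones, so in most wide lone peaks it lay outside the middle 20%. The widest, on chromosome 13 from 38142509 to 38143736, spanned 1228 bp with its summit 985 bp from the start, at a fold enrichment of 18.4. The next, on chromosome 5 from 90802617 to 90803801, spanned 1185 bp with its summit at 281 bp. The third, on chromosome 13 from 24825338 to 24826462, spanned 1125 bp with its summit at 269 bp and reached a -log10 q of 440.

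The deposited score of a peak, about 10 times its -log10 q, was either whole or had a decimal part of 0.25, 0.5 or 0.75. Endings of 0.25 or 0.75 made up 47.5% of lone strong peaks (46.3 to 48.7), 48.8% of SMARCA5-overlapping peaks (47.9 to 49.7) and 23.8% of lone peaks below the threshold (23.2 to 24.4). By this measure the lone strong peaks lay near the overlapping strong peaks, and their intervals overlap. How these fractions arose was not tested.

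The highest fold enrichment of a lone peak was 33.9, on chromosome 16 from 94810571 to 94811211. This peak was 641 bp wide, had a -log10 q of 663, and lay 36459 bp from the nearest SMARCA5 peak, 38144 bp from C/EBPb and 11747 bp from CTCF. The second, on chromosome 19 from 29652777 to 29653335, reached 32.9 and lay 8009 bp from SMARCA5. The third and the fifth were both on chromosome 1, from 180749746 to 180750333 and from 156749018 to 156749575. They lay 2104 and 3644 bp from a CTCF peak, but 17118 and 59338 bp from SMARCA5. The fourth, on chromosome 4 from 120380168 to 120380754, had a fold enrichment of 32.8 and lay 42789 bp from SMARCA5. The 5 highest ratios were thus found at distances from SMARCA5 between 8009 and 59338 bp.

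Significance picked other peaks. The highest -log10 q of a lone peak was 1245, on chromosome 4 from 150958878 to 150959481, where the fold enrichment was 28.8 and SMARCA5 lay 5743 bp away. A peak on chromosome 7 from 3742718 to 3743318 followed at 1244, with a fold enrichment of 30.7 and SMARCA5 at 19069 bp. The third, on chromosome 11 from 48940608 to 48941389, had 1011 and a C/EBPb peak 540 bp away. Among SMARCA5-overlapping strong peaks the highest value was 2889.

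Other PU.1 peaks were less common beside lone strong peaks. Within 10 kb, 50.6% of them had another PU.1 peak of any strength, against 67.6% of SMARCA5-overlapping peaks, a difference of -17.0 percentage points (-18.4 to -15.5) with the same direction on 20 of 20 chromosomes. Within 1 kb the shares were 2.46% and 8.62%, and within 50 kb 93.3% and 98.3%. SMARCA5-only peaks had 67.2% within 10 kb, a difference of -16.6 points, and of -18.7 points with these peaks weighted by fold enrichment. The median distance to the next PU.1 peak was 9874 bp for lone strong peaks (9679 to 10123), 6851 bp for SMARCA5-only peaks and 7424 bp for lone peaks below the threshold. The threshold between lone strong peaks and those below it left out many peaks with a PU.1 neighbour nearer than 5 kb, as described below. Its part in the contrast of these lone groups was not tested. Where a PU.1 peak lay within 10 kb of a lone strong peak, the nearest was a peak overlapping SMARCA5 in 39.8% of 3439 cases, a lone peak below the threshold in 39.4%, and another lone strong peak in 9.77%. Lone peaks below the threshold had a similar make-up of nearest neighbours, at 37.3%, 42.0% and 8.92% of 13096 cases. For SMARCA5-only peaks, the nearest overlapped SMARCA5 in 69.0% of 3560 cases. Among all PU.1 peaks 49.5% overlapped SMARCA5, 31.7% were lone peaks below the threshold and 10.04% were lone strong peaks. The 9.77% of nearest neighbours that were lone strong peaks was thus near their share of the list.

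Most lone strong peaks stood singly, in a list where they made up 10.04% of PU.1 peaks. Runs were not counted in other groups, so this does not set lone strong peaks apart. With steps of at most 10 kb, 6334 of them had no other lone strong peak beside them, 213 runs had 2 and 11 runs had 3, the most in any run. On chromosome 10 from 37246038 to 37262689, 3 lone peaks had fold enrichments of 19.6, 21.7 and 29.2 at 3299, 9179 and 10933 bp from SMARCA5. On chromosome 13 from 46505527 to 46520323, 3 peaks with 15.96, 17.1 and 18.7 lay between 89914 and 104304 bp from it. No SMARCA5 peak lay inside the span of any of the 11 runs. The peaks of a run share no base with SMARCA5 by choice, and other spans of this length were not examined.

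The spacing of strong peaks had a gap that the choice by fold enrichment shares. The nearest other strong PU.1 peak was under 5 kb away for 113 lone strong peaks, or 1.66%, and between 5 and 10 kb away for 1241, or 18.3%. From 1000 to 3000 bp the count was 0, from 4000 to 5000 bp it was 102, and from 5000 to 6000 bp it was 263. SMARCA5-only peaks showed the same step, with 2.96% under 5 kb and 21.6% between 5 and 10 kb. PU.1 peaks of any fold enrichment did lie in that range, where 144 lone strong peaks had their nearest neighbour between 2000 and 3000 bp.

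Fold enrichment itself changed at the same distance. Among lone PU.1 peaks of any fold enrichment with a -log10 q of 100 to 200, the median was 12.03 where another PU.1 peak with a -log10 q of at least 100 lay 3 to 4 kb away (10.5 to 12.5, 48 peaks). It was 15.1 at 4 to 5 kb (13.6 to 15.7, 81 peaks) and 19.1 at 5 to 6 kb (17.45 to 20.3, 95 peaks). PU.1 peaks with SMARCA5 went from 9.92 at 3 to 4 kb to 16.1 at 5 to 6 kb. A fold enrichment of at least 15 was reached by 12.5% of the lone peaks at 3 to 4 kb and by 91.6% at 5 to 6 kb. The choice of strong peaks by fold enrichment therefore left out many peaks of like significance that have a well-supported PU.1 neighbour nearer than 5 kb. In general, MACS2 sets a peak against a background taken from windows around it; the part of those windows in this step was not tested. In all 10 distance steps lone peaks had a higher median fold enrichment than those with SMARCA5, and in 9 of them the intervals did not overlap, as at over 50 kb, where the medians were 22.2 and 19.1.

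**Figure D3:**
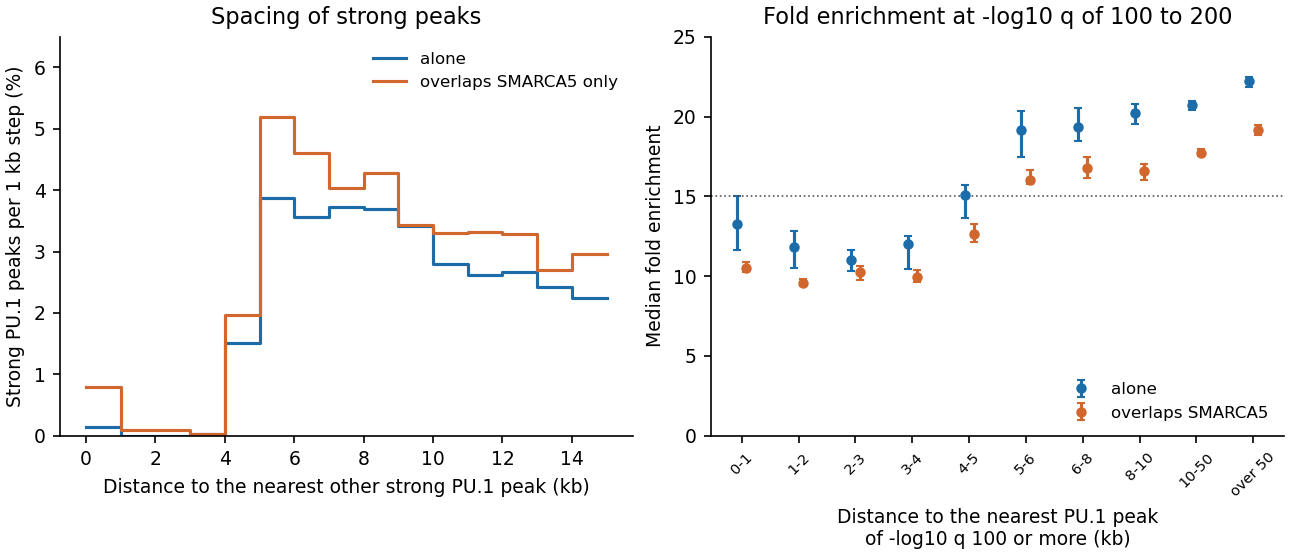
Left, share of strong PU.1 peaks (%) by distance to the nearest other strong PU.1 peak in steps of 1 kb, for lone peaks (blue) and SMARCA5-only peaks (orange). Right, median fold enrichment, with exact 95% intervals, of all PU.1 peaks with a -log10 q of 100 to 200, by distance to the nearest PU.1 peak with a -log10 q of at least 100, for lone peaks (blue) and peaks with SMARCA5 (orange), with the threshold of 15 dotted; both panels step up near 5 kb, from 12.03 to 19.1 for lone peaks on the right.

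Lone strong peaks usually lay several kb or more from SMARCA5. The median distance between edges was 15912 bp (15247 to 16506), and 50% of the distances lay between 7036 and 37247 bp. SMARCA5 lay within 1 kb of 1.09% of them (74 peaks), within 5 kb of 16.0%, within 10 kb of 35.8% and within 50 kb of 80.6%. Lone peaks below the threshold were nearer, with 42.1% within 10 kb. The difference was -6.29 points (-7.61 to -4.96), in the same direction on 20 of 20 chromosomes. Within 50 kb it was -2.16 points, in the same direction on 16. These groups were parted by fold enrichment, and that threshold left out many peaks with a well-supported PU.1 neighbour nearer than 5 kb. Its part in this difference was not tested. For SMARCA5-only peaks, the next SMARCA5 peak that did not overlap the site lay within 10 kb in 55.6% of cases. This is a distance between neighbouring SMARCA5 peaks in part, since such a site already holds one. The SMARCA5 peaks nearest to a lone strong peak, 5766 in all, resembled the whole SMARCA5 list. Their median width was 2447.5 bp against 2553 bp over the list, their median fold enrichment 2.11 against 2.08, and 72.0% held a PU.1 peak against 72.6%. CTCF lay in 29.0% of them against 25.5%.

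A few lone peaks nearly touched SMARCA5. A peak on chromosome 10 from 7555772 to 7556212 was separated from it by 1 bp. So was a peak at 46465255 to 46465692 on chromosome 17, and 11 bp lay between SMARCA5 and a peak on chromosome 10 from 31463060 to 31463481. Their fold enrichments were 15.4, 16.9 and 15.5. At the other end, 16 lone peaks lay over 1 Mb from SMARCA5. The farthest was on chromosome X from 120564280 to 120564690, at 3883329 bp from SMARCA5 and 7861823 bp from CTCF, with a fold enrichment of 17.3 and a -log10 q of 63.4. The next, on chromosome 8 from 99722697 to 99723103, lay 3106093 bp from SMARCA5 and 3088879 bp from C/EBPb, with a fold enrichment of 15.04. The third, on chromosome 2 from 97335240 to 97335697, lay 3065574 bp from SMARCA5 but 38405 bp from CTCF and had a fold enrichment of 20.6.

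Among lone strong peaks, the median -log10 q was lower at larger distances from SMARCA5. It was 125 under 2 kb (113 to 137, 264 peaks), 101 at 5 to 10 kb, 91.2 at 10 to 50 kb and 70.1 over 200 kb away (65.9 to 77.8, 217 peaks). The median fold enrichment was 18.1 (17.6 to 18.7) in the nearest group and 18.5 (17.7 to 19.1) in the farthest. Since the peaks were selected on a fold enrichment of at least 15, its range was cut by the choice, and its course with distance is not set against that of -log10 q. Median width was 476.5 bp in the nearest group, 482 bp in the next and 458 bp in the farthest. The share with another PU.1 peak within 10 kb was 75.8% under 2 kb, 85.3% at 2 to 5 kb and 11.98% beyond 200 kb. In the same groups it was 61.7%, 65.9% and 8.76% for C/EBPb, and 47.3%, 43.6% and 5.99% for CTCF. The SMARCA5 peaks nearest to lone strong peaks themselves held PU.1 in 72.0%, C/EBPb in 43.1% and CTCF in 29.0%. Grouping by distance to SMARCA5 therefore sets these shares in part. The part of such neighbours in the fall of -log10 q was not tested.

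**Figure D4:**
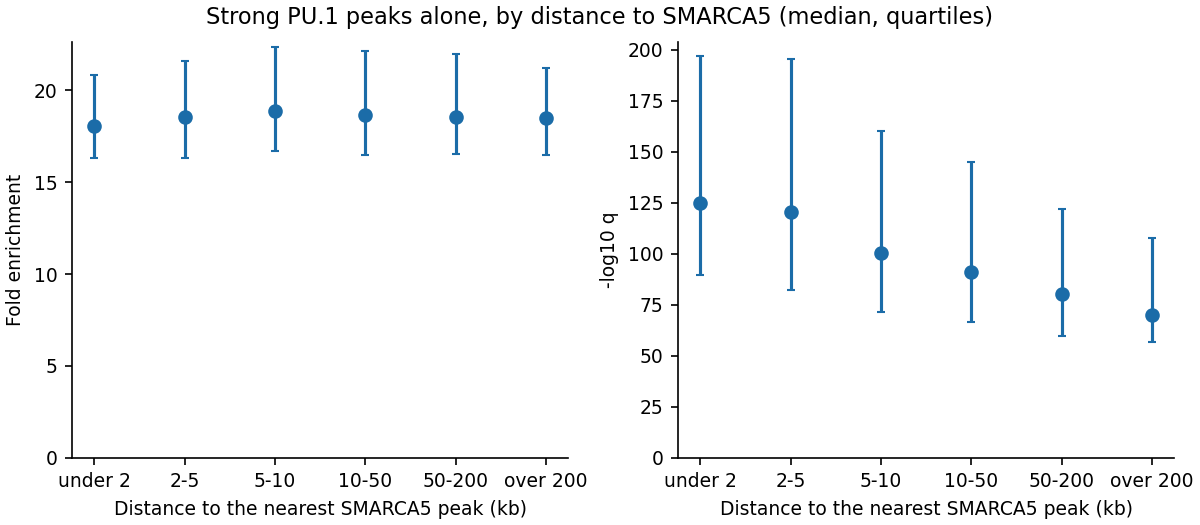
Median fold enrichment (left) and -log10 q (right) of lone strong PU.1 peaks by distance to the nearest SMARCA5 peak in kb, with quartiles as bars. The median -log10 q goes from 125 in the nearest group to 70.1 in the farthest; fold enrichment, on which the peaks were selected at 15 or more, has medians of 18.1 to 18.9.

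C/EBPb lay farther from lone strong peaks than from SMARCA5-only peaks, which also lack an overlapping C/EBPb or CTCF peak. The median distance to C/EBPb was 17747 bp for lone strong peaks (17010 to 18439) and 8719 bp for SMARCA5-only peaks (8272 to 9098). Within 2 kb, 6.04% of lone and 20.3% of SMARCA5-only peaks had a C/EBPb peak, a difference of -14.3 points (-15.5 to -13.1). Within 10 kb the shares were 32.9% and 53.9%, a difference of -20.9 points (-22.7 to -19.2), and both differences held on 20 of 20 chromosomes. Lone peaks below the threshold had 37.6% within 10 kb. SMARCA5-only peaks lie at a SMARCA5 peak by choice. Of all SMARCA5 peaks on these chromosomes, 44.4% held a C/EBPb peak and 25.5% a CTCF peak. The choice of this comparison group may therefore set part of the differences in distance, for C/EBPb and for CTCF. The size of that part was not tested.

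CTCF also lay farther away, by a smaller margin. The median distance was 23805 bp for lone strong peaks (22851 to 24813) and 17920 bp for SMARCA5-only peaks (17191 to 18820). Within 10 kb, 26.5% and 34.2% had a CTCF peak, a difference of -7.69 points (-9.35 to -6.02) with the same direction on 19 of 20 chromosomes. Lone peaks below the threshold were closer to the lone strong ones, with 28.6% within 10 kb and a median distance of 22496 bp. The nearest of the other 3 lists was SMARCA5 for 46.0% of lone strong peaks, CTCF for 27.6% and C/EBPb for 26.5%, with 2 ties counted under both. The lists themselves held 37054 SMARCA5, 25280 CTCF and 30895 C/EBPb peaks on these chromosomes.

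**Figure D5:**
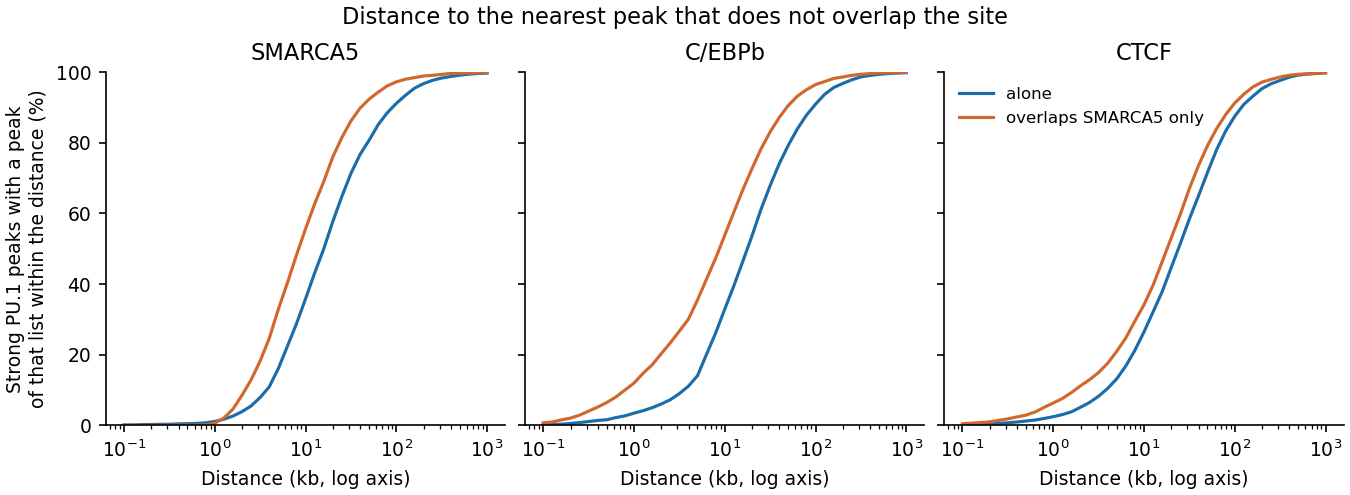
Share of strong PU.1 peaks (%) with a peak of SMARCA5, C/EBPb or CTCF within a distance (kb, log axis), peaks that overlap the site left out, for lone peaks (blue) and SMARCA5-only peaks (orange). The curves of lone peaks lie lower at 10 kb in each panel, for SMARCA5 at 35.8% against 55.6%, with 32.9% against 53.9% in the C/EBPb panel and 26.5% against 34.2% in the CTCF panel.

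The wider surroundings were also thinner. Within 50 kb of a lone strong peak there were on average 5.03 other PU.1 peaks, 2.84 SMARCA5 peaks, 2.43 C/EBPb peaks and 1.77 CTCF peaks. Around SMARCA5-only peaks the averages were 6.32, 3.96, 3.31 and 2.10, with peaks overlapping the site left out. Part of this difference may again follow from the choice of sites at a SMARCA5 peak, which was not tested. No SMARCA5, C/EBPb or CTCF peak lay within 50 kb of 478 lone strong peaks, or 7.04%, against 1.83% of SMARCA5-only peaks and 6.84% of lone peaks below the threshold. For 225 of them no peak of any of the 4 lists lay within 50 kb. All 3 other lists were over 100 kb away for 175 lone strong peaks and over 1 Mb away for 4. Over all 4 lists, lone strong peaks had an average of 12.1 peaks within 50 kb, lone peaks below the threshold 13.1 and SMARCA5-only peaks 15.7.

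The share of lone peaks among strong ones was highest on chromosome X. Lone peaks made up 40.8% of its 500 strong peaks (36.5 to 45.3), against 32.6% on the autosomes together (31.9 to 33.2), a difference of 8.22 points (3.83 to 12.7). On single autosomes the share lay between 30.2% and 37.3%, and the highest, on chromosome 18, had an interval (33.5 to 41.3) that overlapped that of X. Among PU.1 peaks of any strength 46.5% stood alone on X, against 37.2% to 45.7% on autosomes. Below the threshold the share on X was 49.2%, within the autosomal range of 40.3% to 51.1%. All lists were sparse on X. It had 3.07 strong PU.1 peaks and 4.67 SMARCA5 peaks per Mb of spanned sequence, where the lowest autosome had 7.01 and 12.1. Its 204 lone strong peaks lay a median of 21723.5 bp from SMARCA5, against 12461 to 18175 bp on autosomes, and had a median -log10 q of 81.6, against 86.2 to 106.7. Their median fold enrichment was 18.97, within the autosomal range of 18.2 to 19.3. The part of the sparser lists in the higher lone share on X was not tested.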

How the data were processed

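Peak lists were used as deposited by the authors, on mm39. The submitters' processing notes name MACS2 2.2.7.1 (a peak caller), deepTools 3.5.1, STAR 2.7.9a and Picard 2.27.4. The role of each, the handling of replicates and the consensus rule were not stated there. The columns used were the deposited score, fold enrichment (a ratio) and -log10 q per peak, and the summit.

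The regions and lists were chosen with earlier results of these data known. Overlap means at least 1 shared bp, and distances are bases between edges, computed with Python 3.11.15, NumPy 2.4.6, pandas 2.3.3 and SciPy 1.17.1 (plots: matplotlib 3.10.9), after tests on simulated peaks. Differences of shares or medians have intervals by square-and-add from the limits of each group. Weighting used bins of 1 in fold enrichment, and matching added steps of 0.25 in log2 of -log10 q. Named regions were the 5 highest by fold enrichment, 3 by width, by -log10 q and by distance to SMARCA5 at each end, 3 on each side of the threshold, and runs. Of the 11 longest runs, those on chromosomes 10 and 13 were picked after their values were seen, as was the analysis of spacing. Alternatives were other fold enrichment thresholds, the upper 50% of SMARCA5, other distances and other comparison groups. No genome of this build was used, so sequence, motifs and genes were not analysed here.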

Additional observations from a re-analysis of the deposited data

How the results depend on the processing

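Strong peaks chosen by a -log10 q of at least 100, and both groups limited to peaks with no other PU.1 peak within 5 kb, were alternatives added after seeing the data. All 49 alternative values of the differences between lone and SMARCA5-overlapping or SMARCA5-only peaks stayed below 0, and of 68 values in all, 38 stayed within the interval of the reported value (or within 1.5 times the count). With only the upper 50% of the SMARCA5 list by -log10 q, 9334 strong peaks stood alone. The number of lone peaks was 11535 at a fold enrichment of 12 or more, 2590 at 20 or more and 3484 by -log10 q. The same 3 settings put the difference in median width at -93, -54.5 and -45 bp. It was -85 with the upper 50% of the SMARCA5 list by -log10 q, -57 against SMARCA5-only peaks, -68 weighted by fold enrichment and -86 without PU.1 neighbours within 5 kb. The difference in median -log10 q was -109.5 at 12 or more, -159.3 at 20 or more, -158.7 with the upper 50% of SMARCA5, -104 against SMARCA5-only peaks, -92.4 weighted and -109.7 without near neighbours. For a PU.1 neighbour within 10 kb it was -18.7 points at 12 or more, -13.8 at 20 or more, -19.2 weighted and -14.7 by -log10 q. It was -10.7 within 2 kb and -4.97 within 50 kb. The median distance to SMARCA5 was 27310.5 bp with the upper 50% of that list, which holds fewer peaks, 11254.5 bp by -log10 q and 17342.5 bp without near neighbours. For C/EBPb within 10 kb the difference was -23.1 points at 12 or more, -16.5 at 20 or more and -15.1 without near neighbours, and it was -14.3 within 2 kb and -11.2 within 50 kb. The 8 values for CTCF stayed within the interval of the reported one. Apart from the smaller lists and other distances, the cause of these shifts was not tested. No paired analysis was possible because every value belongs to a consensus peak, not to a library. The SMARCA5 peaks on these chromosomes had a median -log10 q of 3.85. Read depth is unknown, so PU.1 sites outside the SMARCA5 list may still carry it below the level of detection.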
